A study of Homo sapiens with 9 samples.

Results

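Collagens are the trimeric proteins of the extracellular matrix, and each chain gene encodes 1 polypeptide of a type. The 40 collagen chain genes described here were the rows, among 33264 genes in the deposited table, whose Ensembl identifier maps to a protein-coding gene named COL, a type number, A and a chain number. Another 4 genes with such a name, COL6A5, COL6A6, COL9A1 and COL19A1, had no row and were not analysed here. The rule used names alone and no measured value. The cells were those of the established human glioblastoma line U87MG, in 3 states with 3 libraries each. R50_OFF cells had been selected in 50 µM temozolomide, a DNA-alkylating drug, and were taken off it after 2 months. R50 cells were selected in, and then kept without a break in, 50 µM temozolomide. The parent line was the unselected U87MG control, and all 3 grew in the same serum-containing medium. Both resistant lines are clonal, so each is 1 derivative of the parent and a difference from it is a difference of that line. Nothing in the labels says that the 3 libraries of a line came from separate cultures, so each p-value measures the spread between these libraries, which may be technical.

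Fibrillar collagens assemble into the cross-striated fibrils of stroma, whereas network-forming collagens build sheets such as the basement membrane and beaded-filament collagen VI forms microfibrils near the cell surface. FACITs attach to fibril surfaces, and transmembrane collagens sit in the plasma membrane. Chains are hydroxylated and folded in the endoplasmic reticulum, trimmed by propeptidases after secretion and cross-linked by lysyl oxidases. In brain, fibrillar collagen is normally scarce outside vessels and meninges, and glioblastoma cells are known to deposit several collagen types.

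Poly-A RNA was sequenced from one end, and values are the authors' signal: normalized between libraries and divided by transcript length in kilobases, so that levels of different genes can be set side by side. Between 28.7 M and 35.8 M reads per library were traced from the steps of the values, and 22904 to 24892 genes lay above 0 in a library. R50 library 2 stood apart from the other R50 libraries, with 15.09 and 18.1 chi-square units per gene to them against 4.66 between those 2, and results that change without it are given below. Of 12 glial and glioma markers 9 were tested, and the list summed to 331675 to 352624 in R50_OFF, 254894 to 270549 in R50 and 381106 to 388654 in parent. VIM averaged 238829 ± 11200, 169905 ± 9060 and 269499 ± 4410 in R50_OFF, R50 and parent (SD, n = 3 each), and together with CD44 it made up most of that sum. Other markers of the list had another order: CHI3L1 averaged 665, 14817 and 5060, and SLC1A3 averaged 5549, 5591 and 2925, in R50_OFF, R50 and parent. The astrocyte marker GFAP was close to 0 in all 9 libraries (0.938 to 8.18). The 10 fibroblast and pericyte markers, which include genes that glioma cells also express, summed to 2074 to 2110 in R50_OFF, 4666 to 4964 in R50 and 3046 to 3336 in parent. DCN of that list was untested, and the other 9 were tested. The epithelial list summed to 717 to 816 in R50_OFF, 835 to 1031 in R50 and 174 to 204 in parent. Most of that sum was KRT8, with means of 616, 860 and 153 in the same order. KRT18 (108, 72.1 and 7.58) was also lowest in parent, whereas EPCAM averaged 29.1, 10.2 and 33.4. The endothelial list summed to 154 to 169 in R50_OFF, 255 to 303 in R50 and 372 to 403 in parent. The leukocyte list summed to no more than 50.3 in any library. In RNA from bulk cells, fewer cells of a type and less RNA per cell cannot be told apart.

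By signal, collagen RNA was dominated by types I, V and VI in all 3 lines, but R50 carried a different mixture from R50_OFF and parent. The genes COL1A1, COL1A2, COL5A1, COL6A1, COL6A2 and COL6A3 held 86.8 ± 0.767% of the summed collagen signal in R50_OFF, 91.1 ± 0.22% in R50 and 83.4 ± 0.696% in parent. Fibrillar chains made up 28.2 ± 0.409% in R50_OFF, 53.9 ± 0.644% in R50 and 31.9 ± 1.05% in parent, while the collagen VI chains made up 59.2 ± 0.708%, 38.1 ± 0.575% and 52.6 ± 0.87%. COL1A1 alone held 14.6 to 15.2% in R50_OFF, 35.1 to 35.6% in R50 and 16.6 to 17.6% in parent. These are shares of signal, and which class was larger in R50 depends on the measure. In traced reads, which rise with transcript length, R50 library 1 had 20015 and 10040 on COL1A1 and COL1A2. It had 15265, 31946 and 17022 on COL6A1, COL6A2 and COL6A3. Class shares of reads were not computed. By signal, the highest chain was COL1A1 in R50 and COL6A1 in both R50_OFF and parent. This order did not hold for traced reads. There COL6A2 (28350 to 31946) exceeded COL1A1 (17718 to 20015) in the R50 libraries. In the parent libraries COL6A3 (57676 to 72838) exceeded COL6A1 (20978 to 26618). The total moved less than the mixture: the chains summed to 74130 ± 764 in R50_OFF, 83800 ± 6050 in R50 and 100335 ± 6630 in parent. The totals of R50_OFF lay below those of both other lines in every library, and all R50 totals (77264 to 89199) lay below all parent totals (93314 to 106490). After quantile normalization the means were 71593 in R50_OFF, 89811 in R50 and 95972 in parent, and the R50 and parent libraries overlapped. They also overlapped as a share of the summed signal of all genes (0.253 to 0.288% and 0.274 to 0.308%). As a share of all traced reads, the chains held 0.35% in R50_OFF, 0.337% in R50 and 0.49% in parent. There R50_OFF (0.348 to 0.351%) overlapped R50 (0.314 to 0.354%), so the low place of R50_OFF depends on the measure. Sums and shares are described without a test, since an exact permutation test of 3 libraries against 3 cannot go below p = 0.1.

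**Figure D1:**
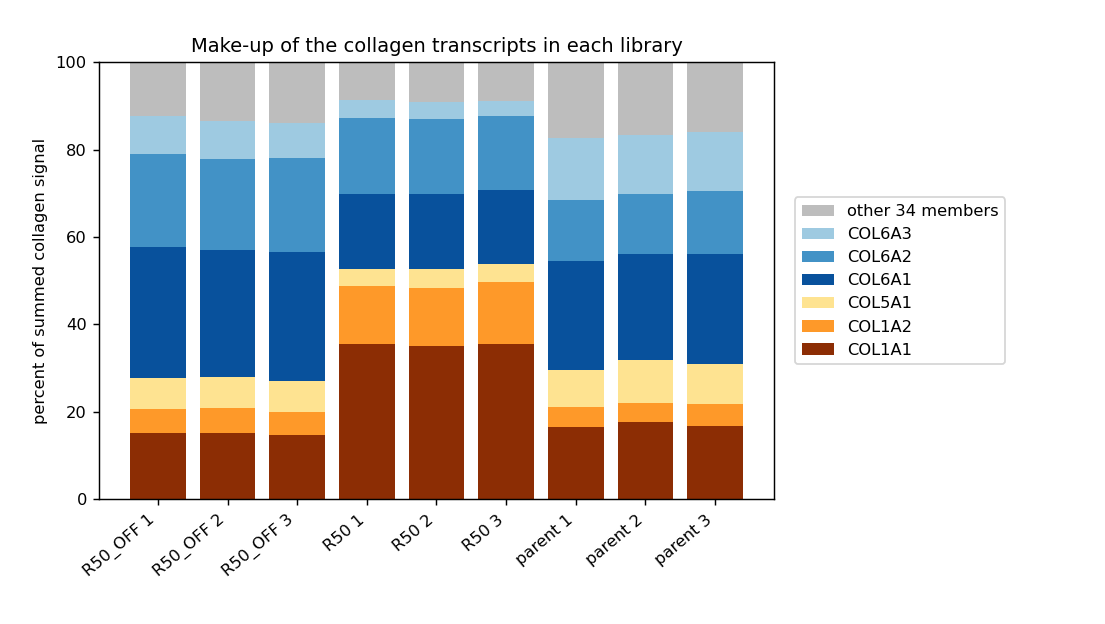
Stacked bars show the percent of the summed collagen signal held by 6 chains and by the other 34 members in each of the 9 libraries (x axis: library; y axis: percent). COL1A1 takes 35.1 to 35.6% in the R50 libraries and 14.6 to 17.6% in the others.

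Of the 40 chains, 24 reached the minimum for testing, a signal of at least 10 in at least 3 libraries, and 10 of these averaged 1000 or more in at least 1 line. The tests compared log2(signal + 1) between lines with limma in 1 fit over all tested genes, and a gene was called at an adjusted p under 0.05. In R50 against parent 6 chains were higher and 15 lower, and 3 were not called. This is 87.5% called, where 63.3% of all 16456 tested genes were called in that comparison (31.6% higher and 31.7% lower). In R50_OFF against parent 5 were higher, 13 lower and 6 not called, 75.0% called against 52.0% of all genes (26.3% higher, 25.7% lower). In R50_OFF against R50 11 were higher, 9 lower and 4 not called, 83.3% called against 59.5% of all genes (30.2% higher, 29.3% lower). The median log2 change of the tested chains was -0.68 in R50 and -0.65 in R50_OFF against parent, beside medians of 0.02 and 0.00 over all tested genes, and 0.11 in R50_OFF against R50, where all genes had 0.00. Both comparisons with parent use the same 3 parent libraries. COL3A1 and COL4A1 passed the minimum through the 3 R50 libraries alone, so they had to differ between lines. Without these 2, 4 of 22 were higher and 15 lower in R50 against parent, 5 higher and 13 lower in R50_OFF against parent, and 11 higher and 7 lower in R50_OFF against R50, with median changes of -0.88, -0.65 and 0.22. COL9A3 reached 10 only in the 3 parent libraries and R50 library 3. It stays in these counts, among the 13 lower in R50_OFF against parent, although it met the minimum through parent. Altogether 23 of the tested chains, COL3A1 and COL4A1 among them, were called in at least 1 comparison and 14 in all 3. The matching shares over all tested genes were not computed, so these 2 counts are a description. COL6A2 was the one not called in any comparison.

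**Figure D2:**
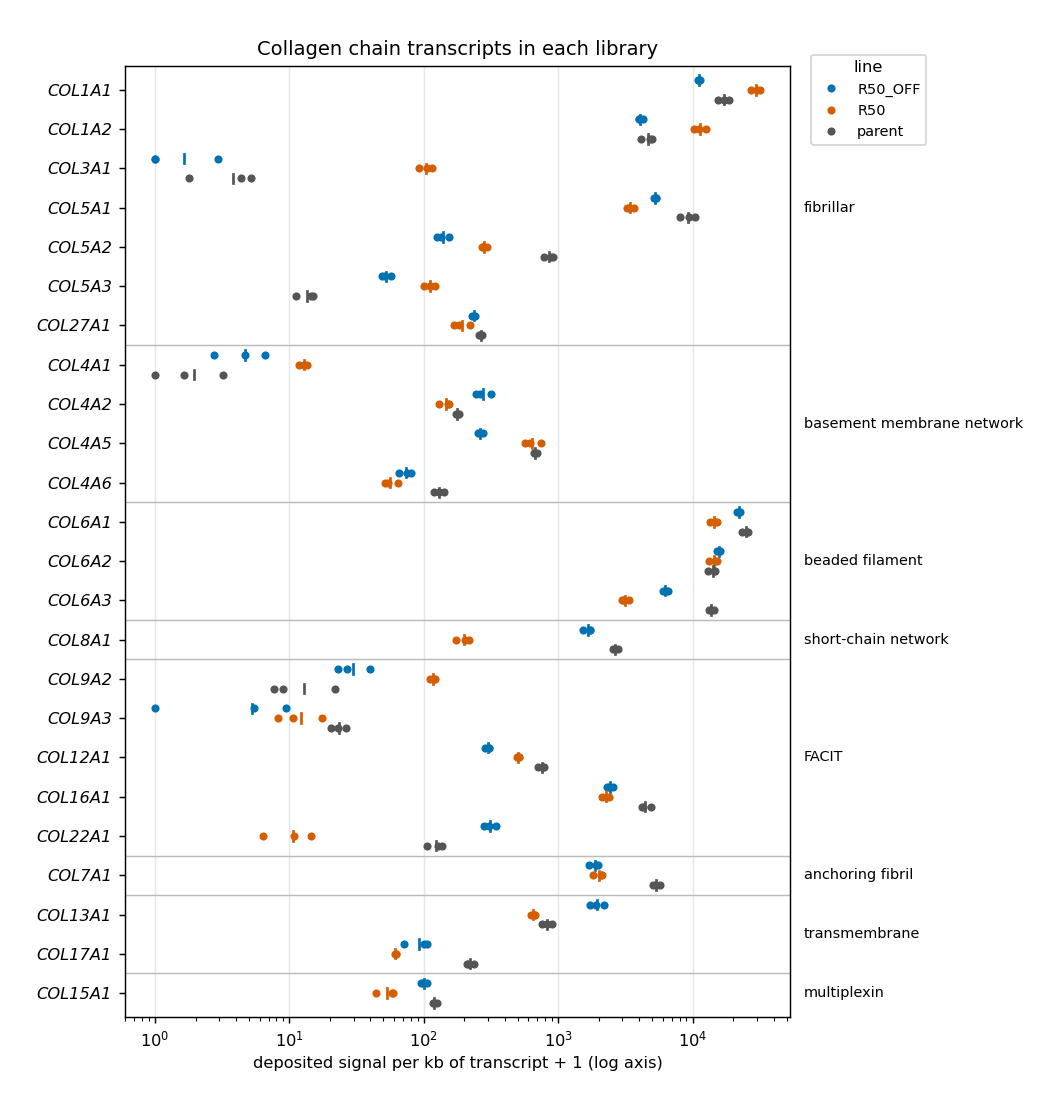
Each point is the signal of 1 tested collagen chain in 1 library (x axis: signal per kb of transcript + 1, log axis), with the 3 lines stacked per gene and a tick at each mean. COL3A1 and COL22A1 show the widest gaps between R50 and R50_OFF, while the libraries of COL6A2 lie together.

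**Figure D3:**
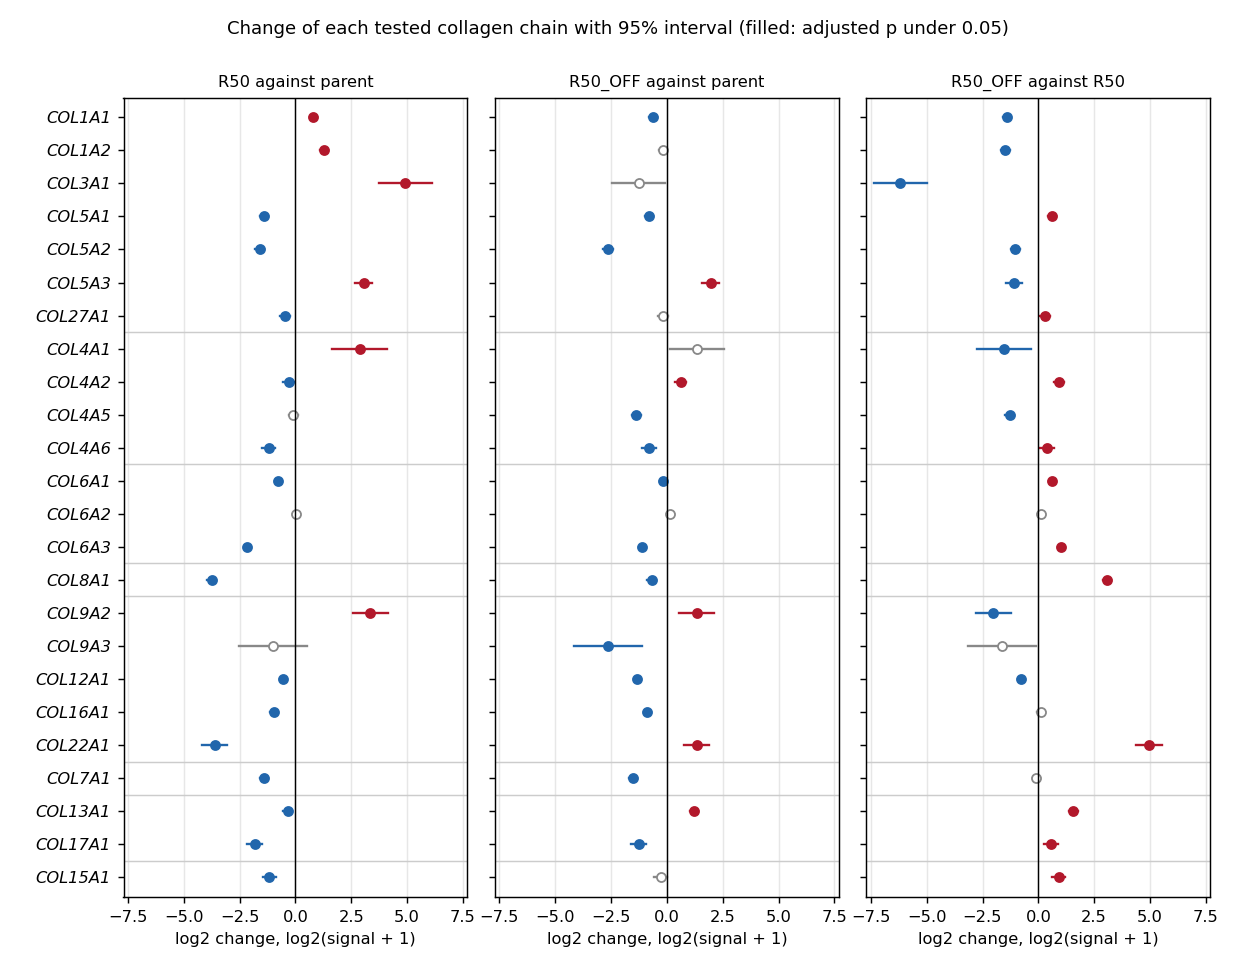
Log2 change with its 95% interval for the 24 tested chains in 3 comparisons (x axis: difference of log2(signal + 1); red higher, blue lower, open grey not called). COL1A1, COL13A1 and COL22A1 lie on opposite sides of 0 in the first and second panels.

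Of 7 tested fibrillar chains, COL3A1 passed the minimum through R50 alone and is left out of these counts. In R50 3 of the other 6 rose against parent (COL1A1, COL1A2 and COL5A3) and 3 fell (COL5A1, COL5A2 and COL27A1). In R50_OFF 1 rose (COL5A3), 3 fell (COL1A1, COL5A1 and COL5A2) and 2 were not called. Against R50, R50_OFF was higher in 2 and lower in 4. The fibroblast and pericyte marker sums given above were highest in R50 and lowest in R50_OFF, which is also the order of COL1A1. Within that list ACTA2 averaged 448, 1723 and 491 in R50_OFF, R50 and parent, whereas LUM averaged 122, 2.89 and 204. Their part in the collagen differences was not tested.

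COL1A1 and COL1A2 encode the 2 chains of type I collagen, the main fibril of skin, tendon and bone. COL1A1 (chromosome 17, 50184101 to 50201632, hg38) had signals of 11308, 11077 and 10927 in R50_OFF, 30236, 27108 and 31794 in R50 and 15490, 18717 and 16977 in parent. The 3 lines did not overlap, with R50 above parent and R50_OFF below it. The log2 change was 0.80 ± 0.07 (SE) in R50 against parent (adjusted p = 3.4e-06), -0.62 in R50_OFF against parent (adjusted p = 4.56e-05) and -1.42 in R50_OFF against R50 (adjusted p = 7.39e-08). COL1A2 (chromosome 7, 94394895 to 94431227) measured 4001, 4250 and 3960 in R50_OFF, 11247, 10264 and 12549 in R50 and 4150, 4783 and 4976 in parent. Here R50 stood alone: R50_OFF and parent overlapped. Its log2 change was 1.29 ± 0.08 in R50 (adjusted p = 1.75e-07), a 2.45-fold higher mean, and -0.18 in R50_OFF (adjusted p = 0.0824), each against parent. Without parent library 1, R50 library 2 or R50 library 3 the R50_OFF change passed (adjusted p = 0.0205, 0.0403 and 0.0474).

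COL3A1, the single chain of type III collagen, was near 0 in R50_OFF and parent. It had 0, 3 and 0 traced reads in R50_OFF, 132, 150 and 156 in R50 and 1, 6 and 4 in parent. As signal this was 0, 1.93 and 0 in R50_OFF, 91.3, 105 and 114 in R50 and 0.801, 4.2 and 3.37 in parent. R50 was far above both other lines in every library, with a mean 37.1 times that of parent and a log2 change of 4.92. As the gene was tested only because R50 reached the minimum, these values are a description and no p is given. The reads of R50_OFF over R50 gave a ratio of 0.00712, likewise a description. COL3A1 fell below the minimum when 1 R50 library was left out. With a minimum of 2 libraries, an alternative chosen after the data were seen, the R50 change without R50 library 2 was 4.90.

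Type V collagen co-assembles with type I and limits fibril width, and its 3 chain genes did not move together. COL5A1, the chain present in most type V trimers, measured 5324, 5172 and 5365 in R50_OFF, 3367, 3266 and 3659 in R50 and 8066, 10348 and 9356 in parent. All resistant libraries were below all parent libraries, and R50 was the lowest, with log2 changes of -1.43 ± 0.08 in R50 (adjusted p = 6.88e-08) and -0.80 in R50_OFF (adjusted p = 1.27e-05). COL5A2 measured 125, 133 and 154 in R50_OFF, 271, 273 and 294 in R50 and 781, 911 and 880 in parent. It too was below parent in both lines, but here R50_OFF was the lower, with log2 changes of -2.64 in R50_OFF (adjusted p = 7.64e-09) and -1.61 in R50 (adjusted p = 9.2e-08). COL5A3, a rarer chain, measured 50.1, 47.6 and 56.2 in R50_OFF, 121, 111 and 99.4 in R50 and 10.1, 13.9 and 13.5 in parent. It was above parent in every resistant library, by 3.05 ± 0.17 in R50 (adjusted p = 7.01e-08) and 1.96 in R50_OFF (adjusted p = 4.85e-06) on the log2 scale. COL3A1 and COL5A2 are neighbours on chromosome 2, on opposite strands with 19151 bases between them in GENCODE 44, and in R50 COL3A1 rose while COL5A2 fell. COL27A1 is a fibrillar chain outside the rule for genes given in full, and it averaged 234, 190 and 263 in R50_OFF, R50 and parent.

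The stretches just upstream of COL5A1 and COL5A3 are shown because these 2 chains of 1 collagen type moved in opposite directions. They are the 250 bases before the RefSeq transcription start (GRCh38.p14), read 5′ to 3′ on the gene's strand, at chr9:134641553-134641802 (plus strand) and chr19:10010505-10010754 (minus strand). Capitals mark the letters CCAAT of the CCAAT box, TATAAA of the TATA box and GGGCGG of the GC box. Each was searched on both strands, and no matches overlapped in these windows.
COL5A1: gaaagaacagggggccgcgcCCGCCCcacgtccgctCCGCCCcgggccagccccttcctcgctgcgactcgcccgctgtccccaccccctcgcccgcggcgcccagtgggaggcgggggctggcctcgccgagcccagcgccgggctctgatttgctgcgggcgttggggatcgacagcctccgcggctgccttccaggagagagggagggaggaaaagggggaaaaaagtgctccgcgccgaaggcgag
COL5A3: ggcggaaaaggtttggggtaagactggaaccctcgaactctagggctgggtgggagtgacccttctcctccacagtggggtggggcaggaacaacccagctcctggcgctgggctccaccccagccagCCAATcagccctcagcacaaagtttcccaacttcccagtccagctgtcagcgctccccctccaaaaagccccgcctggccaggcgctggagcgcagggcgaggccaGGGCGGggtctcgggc
The COL5A1 window holds GC boxes that begin at -230 and -214 from the start and none of the other motifs, and the COL5A3 window holds a CCAAT box at -122 and a GC box at -16. RefSeq windows were at hand for 29 of the 40 genes, 40 windows in all because some genes have several starts, and 18 of these belong to 16 tested genes. A CCAAT box was in 11 of the 40 windows, a TATA box in 7 and a GC box in 23. Of the 18 windows of tested genes, 6, 4 and 13 held them. The shares over all 35116 windows of that length were 32.0%, 10.7% and 42.6%. Windows of 1 gene can overlap, as those of COL5A1 do, so these are counts of windows and not of genes. A match of letters is a description and does not show that a factor binds there.

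Of the type VI chains, COL6A3 fell in both resistant lines while COL6A2 was called in neither. COL6A3, the largest chain (chromosome 2, 237324003 to 237414328), measured 6503, 6335 and 5994 in R50_OFF, 3334, 2979 and 3030 in R50 and 13152, 14447 and 13756 in parent. The lines did not overlap, and R50 was the lowest. The log2 change was -2.15 ± 0.06 in R50 (adjusted p = 2.44e-10) and -1.13 ± 0.06 in R50_OFF (adjusted p = 7.88e-08) against parent, and 1.01 in R50_OFF against R50 (adjusted p = 1.28e-07). COL6A1 measured 22404, 21406 and 22026 in R50_OFF, 14627, 13362 and 15081 in R50 and 23269, 25825 and 25478 in parent. It fell by 0.79 on the log2 scale in R50 (adjusted p = 4.92e-07), while the change in R50_OFF was -0.18 (adjusted p = 0.0221). COL6A2 measured 15781, 15180 and 16086 in R50_OFF, 14742, 13250 and 15268 in R50 and 13016, 14624 and 14528 in parent. Its R50 libraries overlapped both other lines, while the R50_OFF libraries lay above all parent libraries. The change was 0.04 in R50 (95% interval -0.10 to 0.18, adjusted p = 0.636) and 0.16 in R50_OFF (0.02 to 0.30, adjusted p = 0.0548). With quantile normalization COL6A2 was called higher in both, by 0.23 in R50 (adjusted p = 0.00771) and 0.17 in R50_OFF (adjusted p = 0.0375).

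COL6A1 and COL6A2 lie 93061 bases apart on the same strand of chromosome 21, COL6A3 on chromosome 2. The tested genes within 5 Mb of COL6A1 had a median change of -0.42 in R50 against parent (57 genes), and the same region gave -0.42 around COL6A2, which itself stood at 0.04. Within 2 Mb the median was -0.23 around COL6A1 (34 genes) and -0.23 around COL6A2 (33 genes). Around COL6A3 the median within 5 Mb was -0.29 in R50 and 0.18 in R50_OFF (62 genes), and within 2 Mb -0.29 and 0.30 (22 genes). The part of the neighbouring region in these changes was not tested. The window before the COL6A2 start at chr21:46097862-46098111 (plus strand, same source and marks as above) is shown because this chain alone among the tested chains was called in no comparison.
COL6A2: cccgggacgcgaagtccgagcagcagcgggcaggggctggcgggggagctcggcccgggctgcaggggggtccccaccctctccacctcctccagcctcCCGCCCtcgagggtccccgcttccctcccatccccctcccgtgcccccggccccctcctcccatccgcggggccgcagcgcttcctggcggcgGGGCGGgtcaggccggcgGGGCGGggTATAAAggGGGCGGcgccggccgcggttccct
It holds a TATA box at -32 and GC boxes at -151, -58, -40 and -24.

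The balance between chains that assemble together differed between lines. The ratio of COL6A3 to COL6A1 signal was 0.286 ± 0.0124 in R50_OFF, 0.217 ± 0.0144 in R50 and 0.555 ± 0.0132 in parent (SD, n = 3 each). The ratio of COL6A1 to COL6A2 was 1.40 ± 0.0268, 0.996 ± 0.0109 and 1.77 ± 0.0172 in the same order. COL1A1 exceeded COL1A2 by 2.73 ± 0.113 times in R50_OFF, 2.62 ± 0.0794 times in R50 and 3.69 ± 0.254 times in parent, although COL1A1 itself was lower than parent in R50_OFF and higher in R50. COL5A1 over COL5A2 was 38.8 ± 3.89 in R50_OFF, against 12.3 ± 0.289 in R50 and 10.8 ± 0.53 in parent. COL4A5 over COL4A6 was 3.64 ± 0.575 in R50_OFF, 11.5 ± 0.276 in R50 and 5.29 ± 0.407 in parent. The libraries of R50_OFF and of R50 each lay apart from those of parent in all of these ratios. Ratios rest on per-length values and are described without a test.

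**Figure D4:**
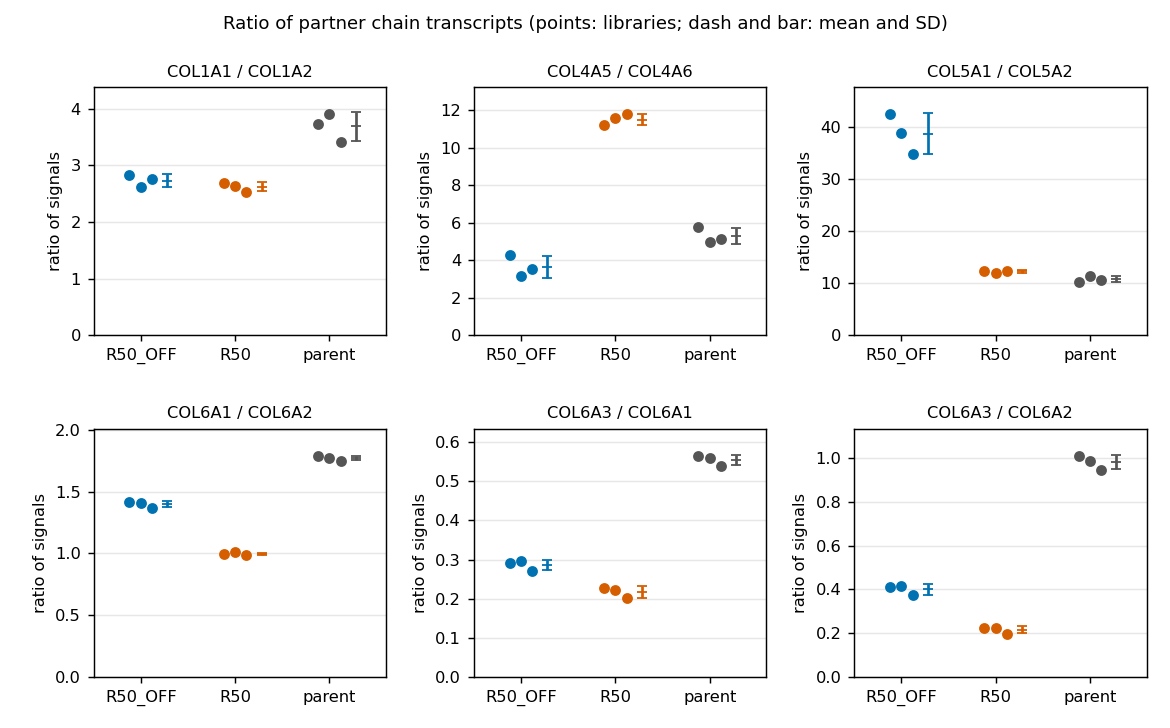
Ratio of the signals of 2 chains in each library (points), with mean and SD beside them, for 6 chain pairs of types I, IV, V and VI (y axis: ratio, from 0). COL6A3 relative to COL6A1 lies at 0.201 to 0.296 in the resistant lines and at 0.54 to 0.565 in parent.

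Of 4 tested basement membrane chains of type IV, COL4A1 passed the minimum through R50 alone. Of the other 3, 0 rose and 2 fell in R50, and 1 rose and 2 fell in R50_OFF, against parent. COL4A5 measured 274, 250 and 260 in R50_OFF, 565, 616 and 738 in R50 and 675, 695 and 655 in parent, low in R50_OFF and overlapping between R50 and parent. It fell by 1.37 on the log2 scale in R50_OFF against parent (adjusted p = 7.14e-07), while in R50 the change was -0.09 (95% interval -0.29 to 0.12, adjusted p = 0.434), or -0.19 without R50 library 3 (adjusted p = 0.0412). COL4A6, which begins 340 bases from COL4A5 on the opposite strand of the X chromosome, measured 64.4, 79.8 and 73.5 in R50_OFF, 50.3, 53.0 and 62.8 in R50 and 117, 140 and 128 in parent. It was below parent in every resistant library, by -1.20 in R50 (adjusted p = 1.82e-05) and -0.81 in R50_OFF (adjusted p = 0.000501).

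COL4A1 and COL4A2, whose products form the most widespread type IV trimer, were far apart in level, and both fall outside the rule for genes given in full and were chosen after their values were seen. COL4A1 had 8, 3 and 5 traced reads in R50_OFF, 19, 17 and 19 in R50 and 3, 1 and 0 in parent. COL4A2 had signals of 244, 316 and 262 in R50_OFF, 154, 128 and 149 in R50 and 178, 172 and 182 in parent, against a COL4A1 signal of at most 12.6 in any library. COL4A2 was highest in R50_OFF, with a log2 change of 0.62 ± 0.11 against parent (adjusted p = 0.000873) and 0.92 against R50 (adjusted p = 4.03e-05). In GENCODE 44 the genes overlap by 1346 bases on opposite strands of chromosome 13, and the sources used here do not say whether reads were counted by strand. Their RefSeq start sites are 126 bases apart, and the stretch between them, chr13:110307158-110307283, is shown on the COL4A2 strand (marks as above) because both genes start at its ends.
COL4A2: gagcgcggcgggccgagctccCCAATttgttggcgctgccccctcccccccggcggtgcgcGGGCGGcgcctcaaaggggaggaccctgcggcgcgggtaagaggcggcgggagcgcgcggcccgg
It holds a CCAAT box at -105 and a GC box at -65, counted from the COL4A2 start. The 47 tested genes within 5 Mb of COL4A2 had a median change of 0.47 in R50 and 0.61 in R50_OFF, but 0.71 and 0.08 within 2 Mb (15 genes), and their part in its change was not tested.

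COL8A1 and COL22A1 had the deepest falls in R50. COL8A1 encodes a short chain that forms lattices under endothelium. The gene (chromosome 3, 99638475 to 99799226) measured 1526, 1736 and 1716 in R50_OFF, 173, 217 and 202 in R50 and 2630, 2791 and 2549 in parent. R50_OFF stood between the others without overlap, closer to parent. The log2 change was -3.75 ± 0.09 in R50 (adjusted p = 9.94e-11) and -0.68 ± 0.09 in R50_OFF (adjusted p = 6.6e-05) against parent, and 3.07 in R50_OFF against R50 (adjusted p = 1.04e-09). COL7A1, the anchoring fibril chain that ties epithelial basement membrane to stroma, was low in both resistant lines. It measured 1706, 1992 and 1909 in R50_OFF, 2085, 1802 and 2098 in R50 and 5296, 5678 and 5039 in parent. Their libraries overlapped each other, with log2 changes of -1.51 in R50_OFF (adjusted p = 9.31e-08) and -1.42 in R50 (adjusted p = 5.36e-08) against parent and -0.09 between them (95% interval -0.26 to 0.08, adjusted p = 0.321).

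Of 5 tested FACIT chains, 1 rose and 3 fell in R50 and 2 rose and 3 fell in R50_OFF, against parent. The 3 that fell in R50_OFF include COL9A3, which met the minimum through parent. COL22A1, a chain known from tissue junctions such as that of muscle and tendon, measured 280, 302 and 344 in R50_OFF, 5.32, 13.5 and 9.84 in R50 and 105, 136 and 126 in parent. The lines did not overlap, and R50_OFF was above parent while R50 was far below. The log2 change was -3.62 ± 0.26 in R50 (adjusted p = 4.37e-07), 1.33 in R50_OFF (adjusted p = 0.00127) and 4.95 in R50_OFF against R50 (adjusted p = 7.27e-08). COL9A2, a chain of cartilage fibrils, measured 38.5, 21.8 and 25.8 in R50_OFF, 120, 119 and 111 in R50 and 7.98, 20.9 and 6.72 in parent. It was highest in R50, with a log2 change of 3.35 ± 0.36 against parent (adjusted p = 1.14e-05), and R50_OFF was 1.33 above parent (adjusted p = 0.00944). COL9A3, its partner chain, had at most 21 traced reads in a library and averaged 4.28, 11.1 and 22.2 in R50_OFF, R50 and parent, highest in parent. The fit called it lower in R50_OFF but not in R50, against parent. As it met the minimum through parent, this is a description and no p is given.

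COL12A1 bridges type I fibrils to other matrix proteins, and it measured 303, 303 and 286 in R50_OFF, 495, 509 and 511 in R50 and 777, 707 and 772 in parent. The lines formed 3 separate steps, with log2 changes of -1.34 in R50_OFF (adjusted p = 4.24e-08) and -0.57 in R50 (adjusted p = 1.16e-05) against parent. COL16A1, also outside that rule, averaged 2421 ± 124, 2260 ± 125 and 4454 ± 376 in R50_OFF, R50 and parent.

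The transmembrane chains parted in R50_OFF. COL13A1 (chromosome 10, 69801880 to 69964275), found at adhesion sites and the neuromuscular junction, measured 1714, 1921 and 2171 in R50_OFF, 657, 624 and 667 in R50 and 758, 901 and 829 in parent. R50_OFF was above parent and R50 below it, without overlap, with log2 changes of 1.22 ± 0.09 (adjusted p = 1.25e-06) and -0.35 ± 0.09 (adjusted p = 0.00521). The difference between the resistant lines was 1.57 (adjusted p = 1.35e-07). COL17A1, a hemidesmosome chain, measured 104, 70.2 and 98.8 in R50_OFF, 60.6, 59.6 and 61.5 in R50 and 210, 234 and 213 in parent. It was below parent in both lines, by -1.83 in R50 (adjusted p = 1.01e-06) and -1.27 in R50_OFF (adjusted p = 3.09e-05). COL15A1, a multiplexin of basement membrane zones, measured 97.6, 93.5 and 105 in R50_OFF, 43.4, 56.5 and 57.6 in R50 and 124, 118 and 115 in parent. It fell in R50, by 1.18 on the log2 scale (adjusted p = 1.6e-05), and the change in R50_OFF was -0.27 (adjusted p = 0.113).

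The other 16 chains stayed below the minimum, and 14 of them had no more than 15 traced reads in any library. Their highest signal was 19.4, for COL4A3 in a parent library, and 11 had no read in at least 1 library. They include the cartilage chains COL2A1, COL10A1, COL11A1 and COL11A2, the kidney and lung basement membrane chains COL4A3 and COL4A4, and COL18A1, which gives rise to endostatin.

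A few calls near the threshold rested on single libraries or settings. The fall of COL4A2 in R50 (-0.31, adjusted p = 0.0324) was not called without parent library 1, 2 or 3 or R50 library 2 (adjusted p = 0.0532 to 0.0962), with voom weights (0.0798) or with no filter (0.0527). The COL6A1 change in R50_OFF was not called without parent library 2 or 3 or R50_OFF library 2 or 3 (0.0524 to 0.0888) or with no filter (0.0502). In R50_OFF against R50, COL4A6 (0.39, adjusted p = 0.0306) was lost without R50 library 1 or 2 or R50_OFF library 2 or 3 (0.0658 to 0.104) and with no filter (0.0515). COL27A1 (0.31, adjusted p = 0.0207) was lost without R50 library 1 or R50_OFF library 1 or 3 (0.051 to 0.0809). The COL4A1 change of -1.54 in that comparison is a description, as the gene passed the minimum through R50 alone. It was not called without R50_OFF library 2 or 3 (0.119 and 0.0663), with quantile normalization (0.0532), with no filter (0.0536) or with a pseudocount of 0.1 (0.174). Besides COL1A2, given above, calls were gained against parent in R50_OFF for 3 chains. COL3A1 was called lower without parent library 1 or R50_OFF library 2, with the replicate block, with quantile normalization and with a pseudocount of 0.1. COL4A1 was called higher without the same libraries (0.0309 and 0.0429) and with voom weights (0.0385). As COL3A1 and COL4A1 passed the minimum through R50 alone, their calls are a description. COL6A2 was called higher without R50 library 2 or 3 (0.0171 and 0.043), with the replicate block (0.0427), with voom weights (0.0266), with a minimum of 50 (0.0434) and with quantile normalization (0.0375). COL9A3 was called in R50 against parent without R50_OFF library 1 or with a pseudocount of 8. In R50_OFF against R50 it was called without R50_OFF library 3, with the replicate block or with voom weights. These COL9A3 calls are a description, as the gene met the minimum through parent.

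Genes that make, process, bind or degrade collagen were lower more often than higher in both comparisons with parent. Of 96 such genes in 8 lists, 91 had a row and 72 were tested. In R50 24 were higher and 40 lower than in parent, which is 33.3% and 55.6% of those tested, beside 31.6% and 31.7% of all tested genes. In R50_OFF 14 were higher and 39 lower than in parent, 19.4% and 54.2%, beside 26.3% and 25.7% of all genes. In R50_OFF 33 were higher and 31 lower than in R50, 45.8% and 43.1%, beside 30.2% and 29.3% of all genes. Their median log2 changes were -0.28, -0.32 and 0.09, beside 0.02, 0.00 and 0.00 over all genes. The counts of the single lists below are to be read against the same shares of all genes. Without FMOD, which passed the minimum through R50 alone, 23 were higher and 40 lower in R50 and 13 higher and 39 lower in R50_OFF, against parent.

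**Figure D5:**
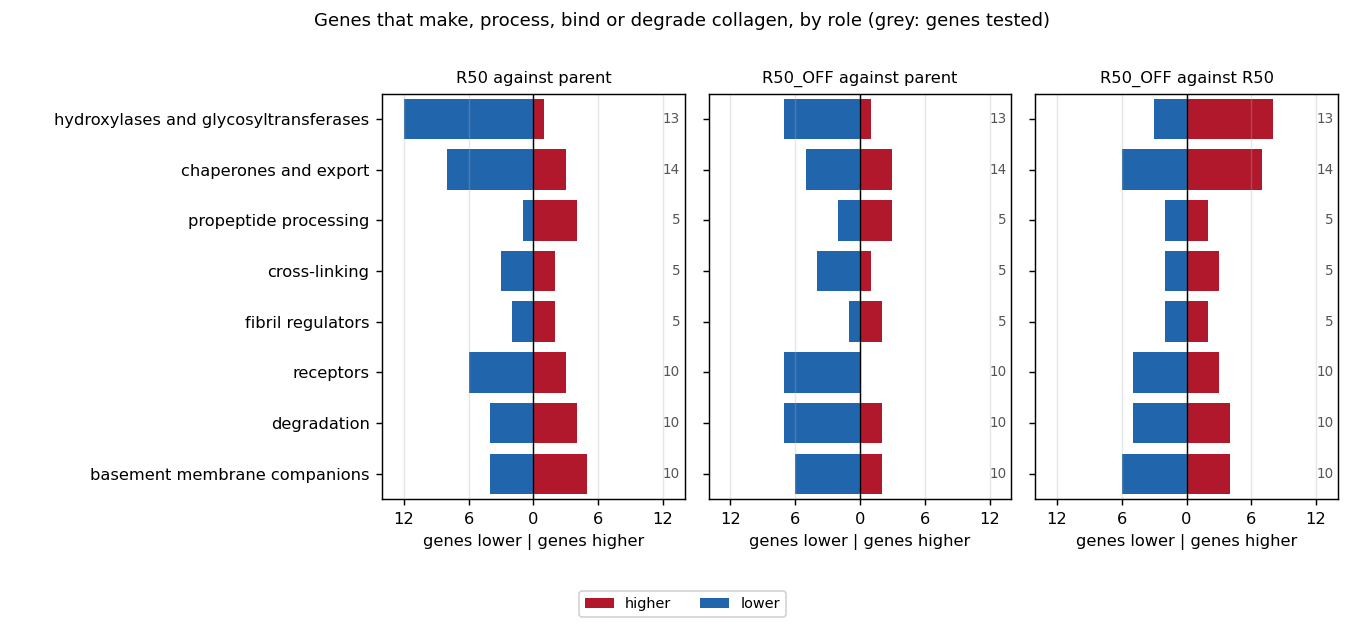
Number of genes higher (red, right of 0) and lower (blue, left of 0) in each of 8 lists of collagen-handling genes, for 3 comparisons, with the number tested in grey. Among the hydroxylases and glycosyltransferases 12 of 13 are lower in R50 than in parent.

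Of the 13 tested enzymes that hydroxylate or glycosylate chains, 12 were lower and 1 higher in R50 than in parent, and 7 were lower and 1 higher in R50_OFF. The exception in R50 was P3H2, a prolyl 3-hydroxylase, at 1267 ± 24.1 in R50_OFF, 3463 ± 94.3 in R50 and 1452 ± 70 in parent, a log2 change of 1.25 in R50 (adjusted p = 4.11e-09). P4HB, the shared subunit of prolyl 4-hydroxylase, averaged 50557 ± 1670, 43216 ± 2350 and 68678 ± 1720 in the same order. PLOD2, a lysyl hydroxylase of telopeptides, fell by 1.11 on the log2 scale in R50_OFF (adjusted p = 5e-06) and by 0.46 in R50 (adjusted p = 0.00173). Of the 14 chaperones and export genes, 8 were lower and 3 higher in R50, and 5 lower and 3 higher in R50_OFF. SERPINH1, the collagen chaperone HSP47, averaged 8406 ± 26 in R50_OFF, 13305 ± 1300 in R50 and 5862 ± 324 in parent, log2 changes of 0.52 in R50_OFF (adjusted p = 7.48e-05) and 1.18 in R50 (adjusted p = 7.39e-08) against parent. SEC24D, a coat protein of the vesicles that export procollagen, averaged 2570 ± 128 in R50_OFF, 1316 ± 48 in R50 and 3955 ± 152 in parent.

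Of 5 tested genes of propeptide processing, 4 were higher and 1 lower in R50, and 3 were higher and 2 lower in R50_OFF, against parent. ADAMTS2, the type I N-propeptidase, averaged 4.51 ± 3.28 in R50_OFF, 234 ± 2.76 in R50 and 52.9 ± 2.21 in parent, with log2 changes of -3.47 in R50_OFF (adjusted p = 1.24e-05) and 2.13 in R50 (adjusted p = 0.00027) against parent. Its relative ADAMTS3 averaged 105 ± 6.54 in R50_OFF, 23.3 ± 2.72 in R50 and 11.3 ± 1.99 in parent. BMP1, the C-propeptidase, averaged 871 ± 68, 1650 ± 128 and 529 ± 24.6, and PCOLCE, which enhances BMP1, averaged 3767 ± 213, 1587 ± 168 and 8825 ± 372, in R50_OFF, R50 and parent. Of 5 tested cross-linking genes, 2 rose and 3 fell in R50, and 1 rose and 4 fell in R50_OFF. LOX, the lysyl oxidase, averaged 8140 ± 480 in R50_OFF, 6675 ± 504 in R50 and 3274 ± 292 in parent, whereas LOXL2 averaged 25490 ± 403, 13662 ± 924 and 39118 ± 4000 and LOXL3 averaged 225 ± 10.7, 178 ± 26.6 and 1170 ± 80.4.

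Of 5 tested fibril regulators, FMOD passed the minimum through R50 alone (2.55 to 7.09 in R50_OFF, 17.4 to 25.3 in R50 and 0 to 1.26 in parent). Of the other 4, 1 rose and 2 fell in R50, and 1 rose and 1 fell in R50_OFF. LUM, a small proteoglycan that spaces fibrils, averaged 122 ± 17.5 in R50_OFF, 2.89 ± 1.7 in R50 and 204 ± 15.5 in parent, a log2 change of -5.84 in R50 (adjusted p = 5.18e-08). FBLN1, a matrix glycoprotein, averaged 601 ± 38.8, 1550 ± 103 and 62.6 ± 11.4, and TNXB, a tenascin that binds fibrils, averaged 233 ± 18.7, 143 ± 12.6 and 899 ± 78.8. Of 10 tested collagen receptors, 3 were higher and 6 lower in R50, and 0 were higher and 7 lower in R50_OFF, against parent. ITGA11, the alpha chain of an integrin for fibrillar collagen, averaged 134 ± 31.3 in R50_OFF, 115 ± 7.91 in R50 and 1777 ± 74.8 in parent, log2 changes of -3.74 in R50_OFF (adjusted p = 8.48e-09) and -3.94 in R50 (adjusted p = 1.64e-09). ADGRG1, an adhesion receptor that binds type III collagen, averaged 5174 ± 254, 5983 ± 442 and 29911 ± 540. DDR1, a collagen-activated kinase, averaged 1859 ± 119 in R50_OFF, 4700 ± 668 in R50 and 1639 ± 119 in parent.

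Of 10 genes of collagen breakdown and its inhibitors, 4 rose and 4 fell in R50, and 2 rose and 7 fell in R50_OFF. MMP14, a membrane-bound collagenase, averaged 35326 ± 1000 in R50_OFF, 32864 ± 3460 in R50 and 81726 ± 2390 in parent. FAP, a protease of gelatin, averaged 160 ± 18.7, 760 ± 125 and 646 ± 52.6, and CTSK, a lysosomal collagenase, averaged 753 ± 41.9, 2760 ± 109 and 1929 ± 70.7. TIMP3, a matrix-bound protease inhibitor, averaged 1522 ± 13.3, 4865 ± 297 and 571 ± 78.3, with log2 changes of 1.42 in R50_OFF (adjusted p = 4.29e-07) and 3.10 in R50 (adjusted p = 4.75e-10). Of 10 basement membrane companions, 5 rose and 4 fell in R50, and 2 rose and 6 fell in R50_OFF. The laminin chain LAMA5 averaged 1972 ± 131, 1522 ± 181 and 8854 ± 401 in R50_OFF, R50 and parent, LAMB2 averaged 2126 ± 81.3, 7826 ± 1150 and 4474 ± 58.7, and the perlecan gene HSPG2 averaged 213 ± 17.8, 773 ± 91.3 and 727 ± 39.9.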

How the data were processed

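Poly-A RNA of 9 U87MG libraries, in 3 groups of 3 taken from the sample titles, was read as 50-base single ends from strand-specific libraries, per the labels' protocols. bcl2fastq 2.17.1.14 and the build hg38 are named in the submitters' processing notes. The sources used here name no aligner, counter, strand setting or annotation. The authors deposited a linear signal per gene that, per the file headers, was normalized between libraries and divided by median transcript length in kilobases. The normalization method is not named. Each gene's values were whole multiples of a step, for 100% of genes within 1e-05 reads, which gave the traced reads. Of the gene identifiers 33137 (99.62%) matched GENCODE version 44, the source of gene coordinates.

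Values were tested on log2(signal + 1) with limma 3.58.1 in R 4.3.3, with an empirical Bayes trend, all 9 libraries in 1 fit with 6 residual degrees of freedom, two-sided, and Benjamini-Hochberg adjustment over 16456 genes with a signal of at least 10 in at least 3 libraries. Fold changes on that scale understate the change of low genes. The fit was checked on simulated data. Signals are means ± SD, and errors of log2 changes are SE. Alternatives were pseudocounts of 0.1 and 8, no filter, a minimum of 50, quantile normalization, voom weights on traced reads, the replicate number as a block, and each library left out. Intervals of log2 changes are 95% intervals of the fit.

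Given in full were tested chains averaging 100 or more in a line and called with a log2 change of at least 1 in a comparison, with their tested trimer partners, and from each partner list up to 3 genes per comparison with the largest called change and a mean of 100 or more. From these, a part is described. The chains, lists and rule were chosen with earlier results of these data known. Some partner lists share LUM, DCN and FAP with the fibroblast markers. Sequences are from RefSeq. No protein sequence was used here.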

Additional observations from a re-analysis of the deposited data

Results flagged for a closer look

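For 4 collagen chains R50 and R50_OFF moved to opposite sides of parent, with both changes called. These chains were picked by that pattern, so the difference between the resistant lines follows from the choice and adds no support. The share of all tested genes with such opposite calls was not computed. The difference, R50_OFF against R50 on the log2 scale, was -1.42 for COL1A1, 0.92 for COL4A2, 1.57 for COL13A1 and 4.95 for COL22A1. COL1A1 was lower in R50_OFF and higher in R50 than in parent, and the other 3 were higher in R50_OFF and lower in R50. The R50 side of COL4A2 (-0.31) rests on single libraries, with an adjusted p of up to 0.0962 when 1 was left out. Both changes of a chain use the same parent libraries, and each resistant line is 1 clonal derivative.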

How the results depend on the processing

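Counts of called genes stayed within 1.5 times under every alternative run. The called chains numbered 20 to 27 in R50 against parent, 18 to 20 in R50_OFF against parent and 19 to 21 in R50_OFF against R50, and 18 to 22, 17 to 21 and 16 to 20 with 1 library left out. The upper count of 27 came with no filter, where all 40 chains were tested. Of 2693 results for single genes under the alternatives, 2633 kept their side of the threshold, 32 lost and 28 gained the call, and 0 called changes reversed. The direction of changes called in neither setting was not compared. The partner genes among these results were picked for large called changes, so their stability is partly built in. Libraries of different lines with the same replicate number had correlations of -0.02 to 0.10 in their deviations from the line means. Those with different numbers had correlations of -0.08 to 0.04. With 3 libraries per line, these values cannot settle whether the numbers pair the libraries. With the replicate block 21, 20 and 21 chains were called, and without R50 library 2, 18, 20 and 17. The median change of the chains in R50_OFF against R50 was 0.11 and turned to -0.01 with quantile normalization. COL3A1 and COL4A1 left the test whenever 1 R50 library was left out, by construction of the filter. The fitted change of COL3A1 in R50_OFF against R50 was -6.18, -8.56 with a pseudocount of 0.1 and -3.69 with 8. Depth limits the 16 untested chains and COL4A1 and COL9A3, which rest on few reads. Transcript length enters every ratio between chains and every share of the collagen signal, and its source is not given in the sources used here.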
